A study of Mus musculus with 4 samples.

Results

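Messenger RNA of 55 genes that drive mitosis was examined in germinal centre B cells of wild-type and Nsd2 knockout mice. The genes were chosen by symbol, and all 55 were listed in each of the 4 libraries, among 20735 gene IDs listed in any of them. They fall into 8 groups by role: 12 mitotic kinases, cyclins and phosphatases, 5 spindle checkpoint genes, 4 genes of the anaphase ubiquitin ligase and separase, 11 centromere and kinetochore genes, 3 chromosomal passenger genes, 9 kinesins, 7 genes of spindle assembly and cytokinesis, and 4 transcription factors and mitotic chromosome proteins. The cells came from spleens of C57BL/6 mice aged 8 weeks that had been given sheep red blood cells, a particulate antigen that starts germinal centres. There were 2 libraries of wild-type (wt) cells and 2 of Nsd2 knockout (ko) cells, and the study asked how their transcriptomes differ. Nsd2 is a methyltransferase of histone H3. The labels used here do not give how the gene was deleted, in which cells, at what time after immunization the cells were taken, whether animals were pooled or whether replicates were separate mice. The p-values may therefore measure technical spread only.

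Germinal centre B cells are among the fastest dividing cells of the body, and most divide in the dark zone of the germinal centre. A cell enters mitosis when the kinase CDK1, bound to a cyclin, is switched on by CDC25 phosphatases. The kinetochore, a protein assembly built on centromeric chromatin, then holds the chromosomes to spindle microtubules. The spindle checkpoint keeps the anaphase ubiquitin ligase inactive until every chromosome is attached. Many of these genes are transcribed late in the cell cycle, from promoters that carry a CCAAT box and a cell cycle homology region (CHR), the element read by the DREAM and MYBL2-MuvB complexes, often together with FOXM1.

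Promoter windows of 250 bases before and 50 after the start of the gene, from RefSeq on GRCm38.p6, were available for 47 of the 55 members. Those of Ccna2, Cdc25c, Aurkb, Spc24, Incenp, Kif20a, Tpx2 and Foxm1 were not used here. A CHR (TTTGAA or TTCGAA, either strand) was found in 35 of the 47 windows (74.5%), against 14.3% of the windows of 7975 tested genes. A CCAAT box (CCAAT, either strand) was found in 36 (76.6%), against 40.5%, and both motifs together in 31 (66.0%), against 6.37%. The E2F words TTTCCCGC, TTTGGCGC, TTTCGCGC and TTTGCCGC, on either strand, stood in 3 members (6.38%), Cdk1, Cenpm and Kif15, against 4.59% of tested genes and 31.8% of 44 DNA replication genes. Of the DNA replication genes, 18.2% had a CHR. All 8 kinesins with a window had a CHR, as did 6 of 10 centromere and kinetochore genes. A match is a description of these letters and not a measured site. Below are the windows of the 4 members that passed the test between genotypes, Cdc25b, Cenpk, Mki67 and Spc25, and of the 2 members with the smallest difference, Anln and Cdc20, with CHR and CCAAT matches on either strand in capitals. The windows are Cdc25b (chr2:131186698-131186997, plus strand), Cenpk (chr13:104228361-104228660, plus strand), Mki67 (chr7:135716330-135716629, minus strand), Spc25 (chr2:69206164-69206463, minus strand), Anln (chr9:22389157-22389456, minus strand), Cdc20 (chr4:118437294-118437593, minus strand).
Cdc25b: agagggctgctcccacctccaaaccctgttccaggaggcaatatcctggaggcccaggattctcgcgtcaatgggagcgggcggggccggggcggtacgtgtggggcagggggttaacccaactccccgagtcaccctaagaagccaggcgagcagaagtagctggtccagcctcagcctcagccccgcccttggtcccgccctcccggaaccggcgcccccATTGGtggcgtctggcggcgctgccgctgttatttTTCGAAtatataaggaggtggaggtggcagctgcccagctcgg
Cenpk: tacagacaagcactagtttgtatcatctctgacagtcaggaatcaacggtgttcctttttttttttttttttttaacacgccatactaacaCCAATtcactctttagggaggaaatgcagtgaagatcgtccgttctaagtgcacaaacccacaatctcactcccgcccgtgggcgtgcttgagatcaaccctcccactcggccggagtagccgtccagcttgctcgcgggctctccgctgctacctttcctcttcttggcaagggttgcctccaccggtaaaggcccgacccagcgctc
Mki67: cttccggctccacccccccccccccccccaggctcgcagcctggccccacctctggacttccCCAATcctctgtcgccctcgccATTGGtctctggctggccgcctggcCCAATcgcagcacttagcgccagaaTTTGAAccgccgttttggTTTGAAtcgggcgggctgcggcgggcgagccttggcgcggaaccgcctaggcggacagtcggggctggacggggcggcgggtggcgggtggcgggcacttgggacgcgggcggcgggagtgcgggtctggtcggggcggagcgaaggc
Spc25: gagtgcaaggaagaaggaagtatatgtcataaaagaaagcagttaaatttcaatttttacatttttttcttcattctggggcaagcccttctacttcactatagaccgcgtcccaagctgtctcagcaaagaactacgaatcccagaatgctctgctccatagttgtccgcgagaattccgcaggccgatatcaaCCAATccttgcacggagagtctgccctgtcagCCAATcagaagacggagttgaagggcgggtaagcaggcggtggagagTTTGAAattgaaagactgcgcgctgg
Anln: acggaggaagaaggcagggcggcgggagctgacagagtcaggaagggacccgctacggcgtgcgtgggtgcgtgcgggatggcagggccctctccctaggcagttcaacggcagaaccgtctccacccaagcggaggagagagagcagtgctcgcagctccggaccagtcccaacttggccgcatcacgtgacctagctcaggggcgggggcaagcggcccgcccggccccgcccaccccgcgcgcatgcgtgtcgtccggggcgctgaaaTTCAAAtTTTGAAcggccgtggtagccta
Cdc20: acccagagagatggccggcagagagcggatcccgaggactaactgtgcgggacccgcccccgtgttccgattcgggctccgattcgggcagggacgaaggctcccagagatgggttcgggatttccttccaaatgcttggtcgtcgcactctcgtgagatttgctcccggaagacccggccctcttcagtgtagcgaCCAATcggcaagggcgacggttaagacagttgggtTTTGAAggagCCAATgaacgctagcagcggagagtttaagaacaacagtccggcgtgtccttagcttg
The windows of Cdc25b, Spc25 and Mki67, whose mRNA fell in ko, and that of Cdc20, whose mRNA did not pass the test, each hold both motifs. The window of Cenpk has a CCAAT box and no CHR, and that of Anln has 2 CHR matches and no CCAAT box. Windows with both motifs were thus found among the members that fell and among those near 0. Among the 32 members with a window whose ko libraries both lay below both wt libraries, 23 held both motifs (71.9%), against 8 of the other 15 (53.3%), a description that was not tested.

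Most of the 55 genes had slightly lower values in ko, and few passed the test. Values are FPKM, fragments scaled by transcript length and library size, and differences are log2 fold changes of FPKM + 1 (ko minus wt), tested with limma over the 10883 genes whose mean reached 1 FPKM. All 55 members passed that filter, with means from 11.5 FPKM for Anln to 296.9 for Top2a. Of them 4 fell, Cdc25b, Cenpk, Spc25 and Mki67, and 0 rose (limma, adjusted p below 0.05). Among all tested genes 6.2% fell and 6.66% rose, so the 4 members that fell (7.27%) are a share close to the background. All 4 calls were lost with any 1 of the 4 libraries left out, at limma adjusted p of 0.0538 to 0.145, and 1 other member, Cdk1, passed without ko 1. At an unadjusted p under 0.05 in limma 18 members were lower and 0 higher, beside 15% of tested genes lower and 17.1% higher. A further 8 members, all lower in ko, lay just past the threshold at limma adjusted p of 0.0504 to 0.0668: Cenpa, Cenpn, Mad2l1, Cenpm, Ccnb2, Ccna2, Cdk1 and Nuf2. Of all tested genes 4.78% were lower with a limma adjusted p from 0.05 to 0.10. Below a limma adjusted p of 0.10 lay 12 members (21.8%), all lower, beside 11% of tested genes that were lower at that threshold.

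The direction was more uniform than the calls. In 37 of 55 members (67.3%) both ko libraries lay below both wt libraries, and in 2 members, Bub1b and Kif23, both lay above. Of all tested genes 28.8% lay below in this way and 32.4% above. The members had a median level of 51.7 FPKM against 13.1 for all tested genes, and a median SE of 0.039 against 0.065. The part of this unlike precision in the separation of libraries was not tested. The median log2 difference of the members was -0.055, against 0.012 for all tested genes, and 46 of 55 members (83.6%) had a negative difference, against 47.0% of tested genes. Summed over the 55 members, the level was 3616 and 3631 FPKM in wt 1 and wt 2 and 3446 and 3450 FPKM in ko 1 and ko 2. Both ko sums were lower than both wt sums. The changes were small: 42 members had a log2 difference between -0.1 and 0.1, and 5 members (Cenpk, Cenpm, Spc25, Cenpn and Cdk1) had a ko mean at least 10% under the wt mean. In bulk RNA, fewer dividing cells and less mRNA per dividing cell cannot be told apart.

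**Figure D1:**
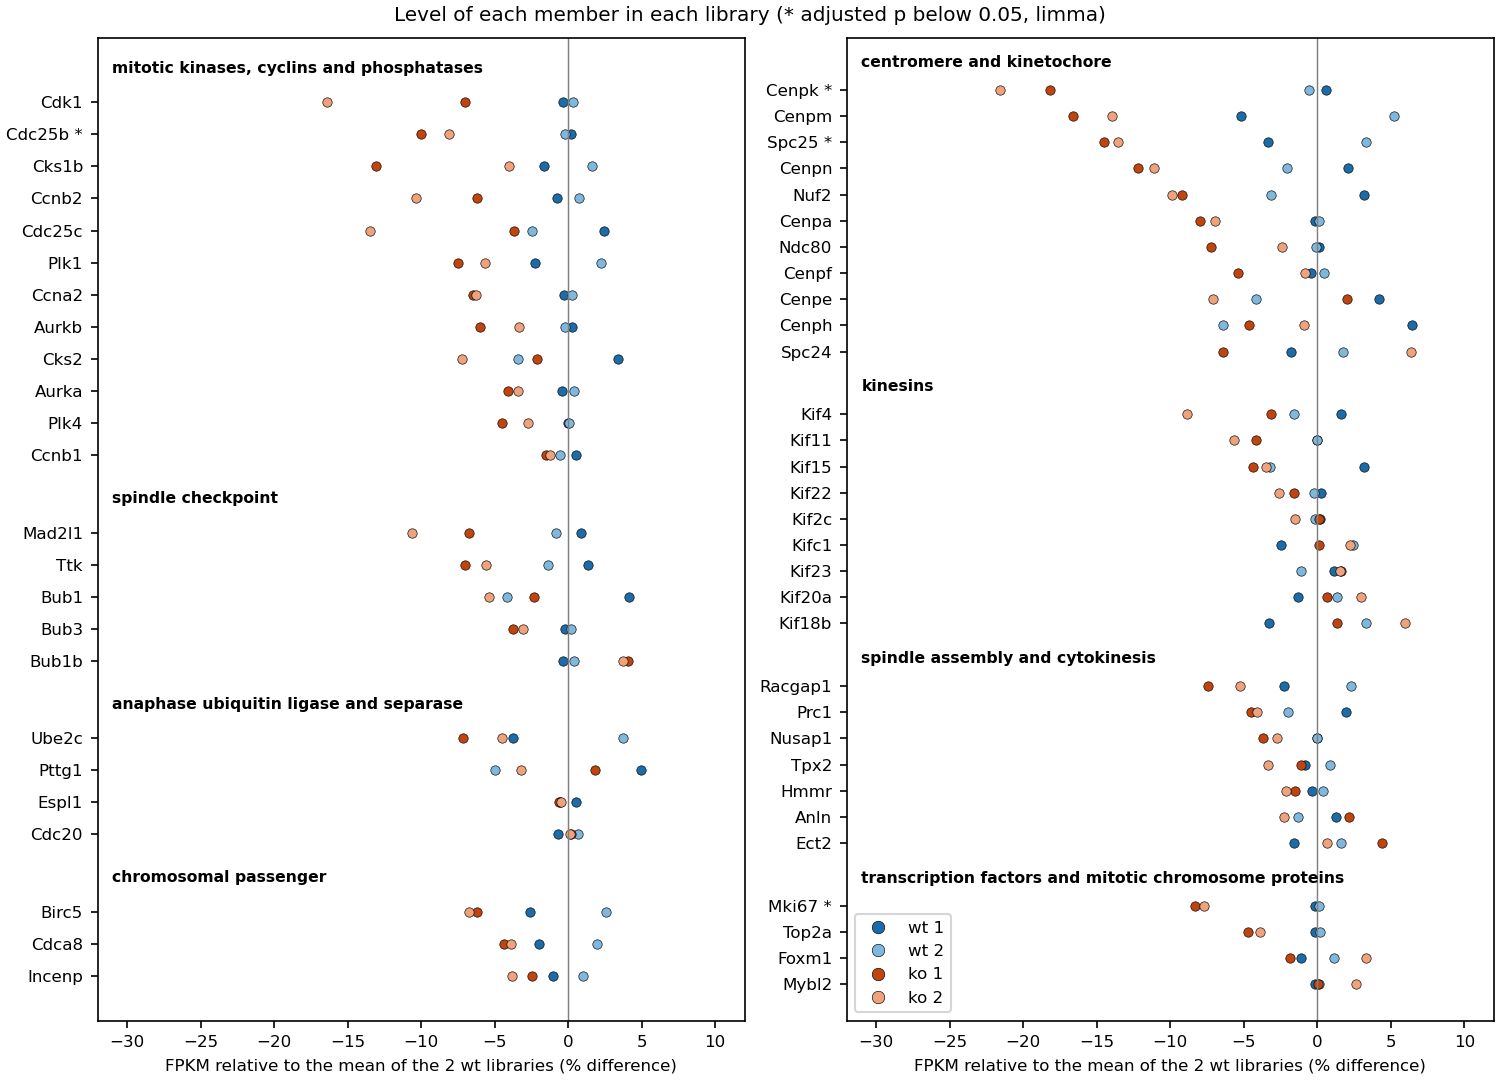
FPKM of each of the 55 members in each library, as % difference from the mean of the 2 wt libraries (x axis), by role; blue points are wt and orange points ko, and a star marks an adjusted p below 0.05. Cenpk, Cenpm and Spc25 have ko points far to the left, as has ko 2 of Cdk1. The 4 points of Cdc20 and of Espl1 lie within 1 percent of 0.

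The libraries behind these values differed in estimated depth and in a few marker genes. Relative to wt 1, the step size among values below 0.15 FPKM gave an estimated depth of 94.2% for wt 2, 75.6% for ko 1 and 77.7% for ko 2. The estimate takes the commonest ratio of low values to wt 1 as that of equal fragment counts. Near that ratio lay 283 of 2197 low genes in wt 2, 206 of 1971 in ko 1 and 156 of 1956 in ko 2. Read counts were not available to check it. Nsd2, listed as Whsc1, was 76.9 and 81.4 FPKM in wt against 31.4 and 34.1 in ko (limma adjusted p = 0.000353), a ratio of 0.414, so the ko libraries still held transcript of the targeted gene. Of 11 germinal centre B markers, all listed, 2 fell and 2 rose in limma (18.2% each), beside 6.2% and 6.66% of all tested genes. Their sums were 2986 and 2997 FPKM in wt against 2963 and 2995 in ko. Of 8 markers of resting B cells, which seldom divide, 5 rose in ko (62.5%) and 0 fell, beside 6.66% and 6.2% of all tested genes. These 8 markers had sums of 238.9 and 234.7 FPKM in wt against 286.5 and 283.1 in ko. Their part in the lower mitotic values was not tested. Of 7 plasma cell markers, of which 6 were tested, 0 passed in limma (1 at an unadjusted p under 0.05), with sums of 761.7 and 762.6 FPKM in wt against 750.6 and 747.5 in ko. The T cell receptor genes Cd3d, Cd3e and Cd3g lay at 0 to 0.284 FPKM in every library. Of 8 T cell markers Lck alone was tested, at 36.9 and 36.4 FPKM in wt against 39.5 and 44.3 in ko (log2 difference 0.18, limma adjusted p = 0.0832). The 8 had totals of 38.1 FPKM in wt 1, 37.4 in wt 2, 41.7 in ko 1 and 46.5 in ko 2, and their part in the results was not tested. The 9 macrophage markers had a total of 6.38 FPKM in wt 1, 5.32 in wt 2, 9.15 in ko 1 and 9.30 in ko 2, and Lyz2 rose. The 6 dendritic cell markers summed to 8.85 and 9.29 FPKM in wt against 11.6 and 11.0 in ko, nearly all of it Flt3, which rose. The 7 erythroid markers, of which 6 were listed, summed to 20.9 and 24.3 FPKM in wt against 24.7 and 24.2 in ko. Granulocyte and stromal markers summed to under 1 FPKM in every library. Among 18 genes of stress and the immediate early response, which can mark how cells were handled, 15 were tested, and 6 of them rose (40.0%) and 0 fell, beside the 6.66% of all tested genes that rose.

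Among the 12 mitotic kinases, cyclins and phosphatases, the phosphatase gene Cdc25b (ENSMUSG00000027330, GRCm38 chromosome 2, 131186949 to 131198497, plus strand) was the one called. This call is 8.33% of the group, beside 6.2% of all tested genes that fell. CDC25B removes inhibitory phosphates from CDK1 at the start of mitosis. Its level was 152.8 and 152.2 FPKM in wt against 137.3 and 140.1 in ko, with no overlap between the genotypes. The log2 fold change was -0.14 ± 0.03 (SE; limma adjusted p = 0.0269, n = 2 per group). In the files Cdc25b shares its locus with 3 other genes, so reads of these may not be separated from its own. The Cdc25b call was lost with no filter on low values (limma adjusted p = 0.0988) and with spread not modelled on expression (limma adjusted p = 0.133). Cdc25c, which acts on the same kinase, stood at 12.75 and 12.14 FPKM in wt against 11.99 and 10.77 in ko (limma adjusted p = 0.287).

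All 12 genes had a negative log2 difference, beside 47.0% of all tested genes. In 11 of them (91.7%) both ko libraries lay below both wt libraries, beside 28.8% of all tested genes. The exception was Cks2, whose genotypes overlapped. Their median was -0.095. Cdk1 itself was 97.6 and 98.3 FPKM in wt against 91.1 and 81.9 in ko, so that its ko libraries differed from each other more than ko 1 did from wt (log2 difference -0.18, limma adjusted p = 0.0659). Ccna2, cyclin A2, which acts from S phase into early mitosis, was 131.4 and 132.1 FPKM in wt against 123.2 and 123.4 in ko. Ccnb2, cyclin B2, was 96.4 and 97.8 FPKM in wt against 91.1 and 87.0 in ko. Neither cyclin passed (limma adjusted p = 0.0618 and 0.0592), although the replicates of each genotype lay closer to each other than to the other genotype. Ccnb1, cyclin B1, the main mitotic partner of CDK1, was 77.1 and 76.3 FPKM in wt against 75.6 and 75.7 in ko (log2 difference -0.02, 95% interval -0.09 to 0.05). Whether the cyclins differ from each other in their response was not tested. Plk1 and Aurka, kinases of centrosome maturation and spindle assembly, had log2 differences of -0.10 and -0.05, Aurkb, the kinase of the chromosomal passenger complex, -0.07, and Plk4, which starts centriole duplication, -0.05. None of these 4 passed in limma, with adjusted p of 0.121 to 0.396. Cks1b and Cks2, small subunits of cyclin-dependent kinases, had log2 differences of -0.13 and -0.07 (limma adjusted p = 0.136 and 0.328).

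Of 11 centromere and kinetochore genes 2 fell (18.2%), beside 6.2% of all tested genes, and the median log2 difference was -0.111. This was the lowest median of the 8 groups, but not with the trends on GC content, transcript length and genomic span removed, where it was -0.090 beside -0.093 for chromosomal passenger genes and -0.091 for kinases and cyclins. In 8 of the 11 (72.7%) both ko libraries lay below both wt libraries, beside 28.8% of all tested genes. In the other 3, Cenpe, Cenph and Spc24, the genotypes overlapped. Cenpk (ENSMUSG00000021714, chromosome 13, 104228611 to 104252392, plus strand) encodes a subunit of the inner kinetochore. It was 16.8 and 16.6 FPKM in wt against 13.7 and 13.1 in ko. The gap between genotypes was several times the gap between replicates, and the log2 fold change was -0.30 ± 0.05 (SE; limma adjusted p = 0.0204, n = 2 per group). In the annotation Cenpk overlaps Ppwd1, a protein-coding gene on the minus strand, and the strand setting is not stated. Reads of Ppwd1 may therefore not be separated from those of Cenpk. The Cenpk call was lost with no filter on low values (limma adjusted p = 0.0907). It was also lost with a term for replicate number and these trends removed (limma adjusted p = 0.0646). Spc25 (ENSMUSG00000005233, chromosome 2, 69193895 to 69206194, minus strand) encodes a subunit of the NDC80 complex, the part of the kinetochore that grips microtubules. It was 30.0 and 32.1 FPKM in wt against 26.6 and 26.9 in ko. The log2 fold change was -0.21 ± 0.05 (SE; limma adjusted p = 0.0377). This call was lost with the trends on GC content, transcript length and genomic span removed (-0.16, limma adjusted p = 0.085) and with any 1 library left out.

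The fitted differences are given here by complex, with no test between subunits. In the NDC80 complex, Nuf2 was 63.2 and 59.3 FPKM in wt against 55.6 and 55.2 in ko (log2 difference -0.14, limma adjusted p = 0.0668). Ndc80 was 32.98 and 32.93 FPKM in wt against 30.57 and 32.16 in ko, and Spc24 was 43.4 and 44.9 in wt against 41.3 and 47.0 in ko. Spc24, the direct partner of Spc25, therefore overlapped between genotypes (log2 difference -0.003, 95% interval -0.15 to 0.15), an interval that reaches into that of Spc25 (-0.32 to -0.10).

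In the inner kinetochore's CENP-H/I/K/M subcomplex, Cenpm was 21.4 and 23.7 FPKM in wt against 18.8 and 19.4 in ko (log2 difference -0.23, limma adjusted p = 0.0572). Cenph was 16.8 and 14.8 FPKM in wt against 15.1 and 15.6 in ko, and Cenpi, from the list of other mitotic genes, 14.9 and 14.7 in wt against 14.8 and 14.9 in ko. Cenpn, which reads the centromeric nucleosome, was 28.4 and 27.3 FPKM in wt against 24.4 and 24.7 in ko (limma adjusted p = 0.0507), with no overlap. Cenpa, the histone H3 variant that marks the centromere, was 99.2 and 99.4 FPKM in wt against 91.4 and 92.4 in ko (log2 difference -0.11, limma adjusted p = 0.0504). Its replicates lay within about 1 FPKM of each other, and it passed with median-of-ratios scaling, quantile normalization, a filter at a mean of 5 FPKM, or sequence trends removed. Cenpe, a kinesin of the kinetochore, and Cenpf, a large outer kinetochore protein, had log2 differences of -0.04 and -0.04, and neither passed in limma (adjusted p = 0.722 and 0.583).

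**Figure D2:**
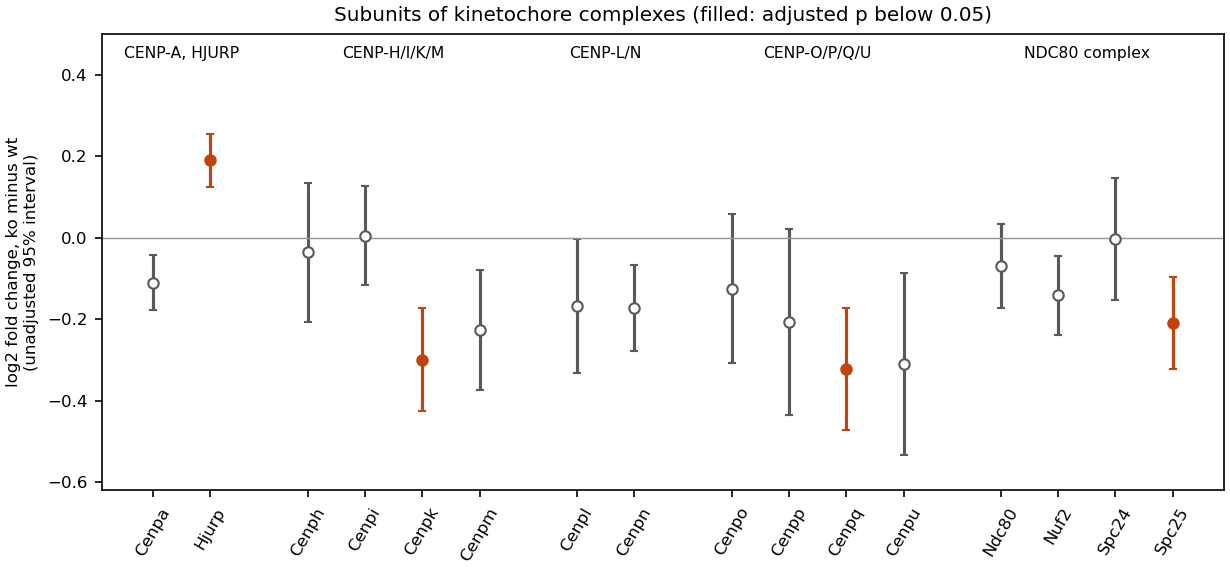
Log2 fold change (ko minus wt, y axis) with its unadjusted 95% interval for subunits of kinetochore complexes; filled points passed an adjusted p of 0.05 in limma. Cenpk, Cenpq and Spc25 lie below 0 and Hjurp above it, while Cenpi and Spc24 lie at 0.

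The spindle checkpoint genes had differences of both signs and no call. Of its 5 genes 0 passed in limma, beside 6.2% of all tested genes that fell and 6.66% that rose. At an unadjusted p under 0.05 in limma 1 was lower, Mad2l1, beside 15% of tested genes lower. Mad2l1 encodes the protein that sequesters CDC20 at unattached kinetochores. It was 96.4 and 94.8 FPKM in wt against 89.2 and 85.5 in ko (log2 difference -0.13, limma adjusted p = 0.052). Bub1b, which encodes BUBR1, another inhibitor of CDC20, was 70.4 and 70.9 FPKM in wt against 73.5 and 73.3 in ko. Its ko libraries were both above wt, with a log2 difference of 0.05 (limma adjusted p = 0.264). Bub3, the partner of BUB1 and BUBR1, was 99.4 and 99.8 FPKM in wt against 95.9 and 96.5 in ko, and Ttk, the kinase that starts checkpoint signalling, 20.1 and 19.6 in wt against 18.4 and 18.7 in ko. Both lay lower in ko without passing (limma adjusted p = 0.271 and 0.242). The listed locus of Bub3 holds 39 genes, so reads of the others may not be separated from its own. Bub1 overlapped between genotypes, with a log2 difference of -0.05.

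The 4 genes that act at anaphase had a median log2 difference of -0.008 and 0 calls in limma, beside 6.2% of all tested genes that fell. Cdc20, the activator of the anaphase ubiquitin ligase, was 123.6 and 125.3 FPKM in wt against 124.7 and 124.6 in ko, with both ko values inside the range of wt. Its log2 difference was 0.002 with a 95% interval of -0.06 to 0.07. Espl1, the separase that cuts cohesin, was 26.5 and 26.2 FPKM in wt against 26.2 and 26.2 in ko (log2 difference -0.01, 95% interval -0.11 to 0.09). Pttg1, securin, which holds separase inactive, was 14.4 and 13.0 FPKM in wt against 14.0 and 13.3 in ko. Its genotypes overlapped, and its interval was wider (-0.17 to 0.15). Ube2c, the ubiquitin-conjugating enzyme of the same ligase, was 116.7 and 125.7 FPKM in wt against 112.5 and 115.8 in ko. Here the ko libraries lay below wt, but the replicates of wt were farther apart than ko 2 was from wt 1 (limma adjusted p = 0.215). With the trends on GC content, transcript length and genomic span removed the median of the 4 genes was -0.063.

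The chromosomal passenger genes encode the partners of Aurora B that place it at centromeres and later at the midzone. All 3 lay below wt in both ko libraries, beside 28.8% of all tested genes, with a median log2 difference of -0.060. Birc5, survivin, was 82.2 and 86.5 FPKM in wt against 79.1 and 78.6 in ko. Cdca8, borealin, was 89.3 and 92.9 FPKM in wt against 87.1 and 87.6 in ko, and Incenp, the scaffold, 66.9 and 68.3 in wt against 65.9 and 65.0 in ko. None passed (limma adjusted p = 0.124, 0.254 and 0.377).

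The kinesins among the members, motors that build and move the spindle, had a median log2 difference of -0.010. Single genes ran from -0.087 to 0.050. Kif2a, a kinesin outside the members, fell and is given below with the other mitotic genes. Of the 9 kinesins 4 (44.4%) lay below wt in both ko libraries, beside 28.8% of all tested genes. Another 1 (11.1%) lay above, beside 32.4%, and 4 overlapped. With ko 2 left out the median was 0.001. Kif11, the motor that pushes the spindle poles apart, was 80.5 and 80.5 FPKM in wt against 77.2 and 76.0 in ko. This was the 1 of the 9 kinesins with an unadjusted p under 0.05 in limma (log2 difference -0.07, adjusted p = 0.154). Of all tested genes 15% were lower at that unadjusted threshold. With sequence trends removed the log2 difference of Kif11 was -0.008. Kif4, a chromosome-bound motor encoded on the X chromosome, was 29.0 and 28.1 FPKM in wt against 27.7 and 26.0 in ko, and Kif15, a spindle motor that backs up Kif11, 31.7 and 29.7 in wt against 29.4 and 29.7 in ko. Neither passed (limma adjusted p = 0.264 and 0.453), and with sequence trends removed Kif4 was at -0.010. Kif23, Kif20a, Kif18b and Kifc1 had positive log2 differences of 0.02 to 0.05, and Kif2c and Kif22 had -0.01 and -0.03. Kif23 and Kif20a act at the central spindle in cytokinesis.

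Genes of spindle assembly and cytokinesis had a median log2 difference of -0.032 and 0 calls in limma, beside 6.2% of all tested genes that fell. At an unadjusted p under 0.05 in limma 1 of the 7 was lower, beside 15% of tested genes. That gene was Racgap1, which forms centralspindlin together with Kif23. It was 68.2 and 71.4 FPKM in wt against 64.6 and 66.2 in ko (log2 difference -0.09, limma adjusted p = 0.139), while Kif23 was 53.1 and 51.9 in wt against 53.3 and 53.3 in ko. Prc1, which bundles midzone microtubules, was 58.1 and 55.9 FPKM in wt against 54.4 and 54.7 in ko. Nusap1, a microtubule-binding protein, was 68.5 and 68.5 FPKM in wt against 66.0 and 66.6 in ko, and Tpx2, the activator of Aurora A on the spindle, 68.5 and 69.6 in wt against 68.3 and 66.7 in ko. All 3 lay lower in ko without passing, at limma adjusted p of 0.280 to 0.534. Hmmr, a spindle-associated protein, lay lower in both ko libraries with a log2 difference of -0.03. Ect2 and Anln, the exchange factor and the scaffold of the cytokinetic ring, overlapped between genotypes, at log2 differences of 0.03 and -0.0007.

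Of the 2 transcription factors and 2 chromosome proteins, Mki67 alone fell, 25.0% of this small group, beside 6.2% of all tested genes. Foxm1 was 40.2 and 41.1 FPKM in wt against 39.9 and 42.0 in ko (log2 difference 0.01, 95% interval -0.09 to 0.11). Mybl2 was 32.3 and 32.4 FPKM in wt against 32.4 and 33.2 in ko (log2 difference 0.02, 95% interval -0.08 to 0.11). The genotypes overlapped for both genes. Mki67 (ENSMUSG00000031004, chromosome 7, 135689784 to 135716361, minus strand) encodes Ki-67, which coats mitotic chromosomes and is widely used to mark dividing cells. It was 216.42 and 217.05 FPKM in wt against 198.75 and 200.04 in ko. The replicates nearly coincided, and the log2 fold change was -0.12 ± 0.02 (SE; limma adjusted p = 0.028, n = 2 per group). The Mki67 call was lost with no filter on low values (limma adjusted p = 0.0986) and with spread not modelled on expression (limma adjusted p = 0.157). It was also lost with a term for replicate number and sequence trends removed (limma adjusted p = 0.083). Top2a, the topoisomerase that disentangles sister chromatids, was 302.9 and 303.9 FPKM in wt against 289.2 and 291.6 in ko. It lay lower in both ko libraries and did not pass (log2 difference -0.06, limma adjusted p = 0.114). With sequence trends removed its log2 difference was -0.007.

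**Figure D3:**
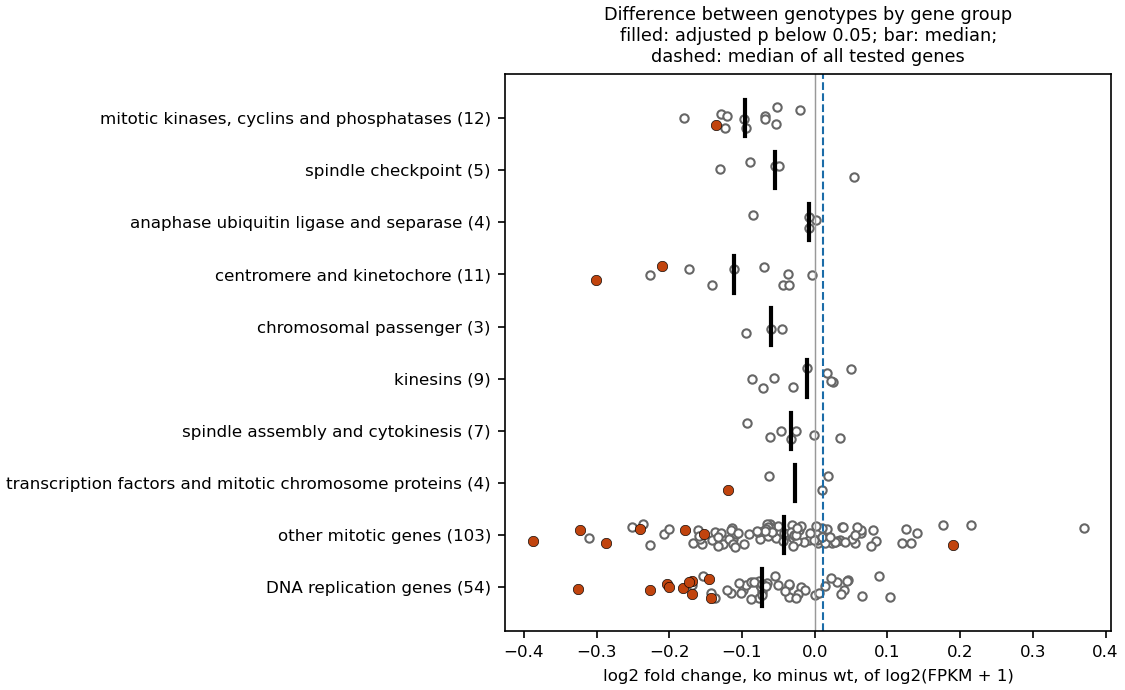
Log2 fold change (ko minus wt, x axis) of each tested gene by group, with the number of genes in brackets; filled points passed an adjusted p of 0.05 in limma, black bars are group medians and the dashed line is the median of all tested genes at 0.012. Medians run from -0.111 for centromere and kinetochore genes to -0.008 for the anaphase ubiquitin ligase and separase.

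Of 105 other mitotic genes picked by textbook function 103 were tested, and 6 fell and 1 rose (limma, adjusted p below 0.05), shares of 5.83% and 0.971% beside the 6.2% and 6.66% of all tested genes. Their median log2 difference was -0.043, and in 45 of 103 (43.7%) both ko libraries lay below both wt libraries and in 15 (14.6%) above, beside 28.8% and 32.4% of all tested genes. The 1 that rose was Hjurp, the chaperone that loads CENP-A at centromeres. It was 155.1 and 157.9 FPKM in wt against 180.5 and 176.8 in ko (log2 fold change 0.19 ± 0.03 SE, limma adjusted p = 0.0132), opposite in direction to the lower values of Cenpa. Among those that fell, Cenpq, an inner kinetochore subunit, was 13.3 and 12.5 FPKM in wt against 9.85 and 10.4 in ko (log2 fold change -0.32, limma adjusted p = 0.0263). Its partners Cenpu, Cenpp and Cenpo had log2 differences of -0.31, -0.21 and -0.13 and did not pass (limma adjusted p = 0.0734, 0.187 and 0.304). Melk, a mitotic kinase, fell by 0.39, Kif2a, a microtubule-depolymerizing kinesin, by 0.29, Depdc1a by 0.24, Cdkn3, a phosphatase of cyclin-dependent kinases, by 0.18, and Cep55, a protein of the midbody, by 0.15 on the log2 scale. Their limma adjusted p ran from 0.0181 to 0.0383. All 7 calls were lost with at least 1 choice of library left out, and 0 to 3 genes of the list passed then (1 without either wt library, 0 without ko 1, 3 without ko 2).

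DNA replication genes act in the S phase before mitosis. Of 54 such genes 10 fell (18.5%) and 0 rose in limma, beside 6.2% and 6.66% of all tested genes, and 2 to 5 passed with 1 library left out (5 without wt 1, 4 without wt 2, 2 without either ko library). They had a median log2 difference of -0.073, and in 30 (55.6%) both ko libraries lay below both wt libraries, beside 28.8% of all tested genes. Pcna, the sliding clamp of DNA polymerases, was 374.6 and 375.0 FPKM in wt against 331.7 and 334.9 in ko, with no overlap (log2 fold change -0.17, limma adjusted p = 0.0109). Mcm7, a subunit of the replicative helicase whose locus holds other genes in the files, fell by 0.18 on the log2 scale. Rrm1 and Rrm2, the subunits of ribonucleotide reductase, fell by 0.20 and 0.15, and Rfc3, a subunit of the clamp loader, fell by 0.23. Limma adjusted p of these 4 ran from 0.0128 to 0.0188. Whether replication and mitotic genes differ in their shift was not tested.

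Properties that the choice of genes did not use varied among the members. Transcript GC content had a median of 47.0% in the members and 49.2% in tested genes. Across the 55 members the log2 difference had Spearman correlations of 0.22 with GC content and 0.15 with transcript length. The correlation was 0.17 with genomic span and -0.21 with mean FPKM. Across 10852 tested genes these were 0.30, -0.08, -0.24 and 0.06 in the same order. GC content alone had the same sign in both. The correlations are descriptions across genes of the same 4 libraries. With the trends on GC content, transcript length and genomic span removed, the median of the members was -0.045, that of all tested genes 0.014, and 31 of 55 members (56.4%) lay below wt in both ko libraries, against 26.0% of tested genes. Of the 4 called members Cdc25b, Cenpk and Mki67 passed in that setting, together with Cenpa, Cenpm and Plk1.

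**Figure D4:**
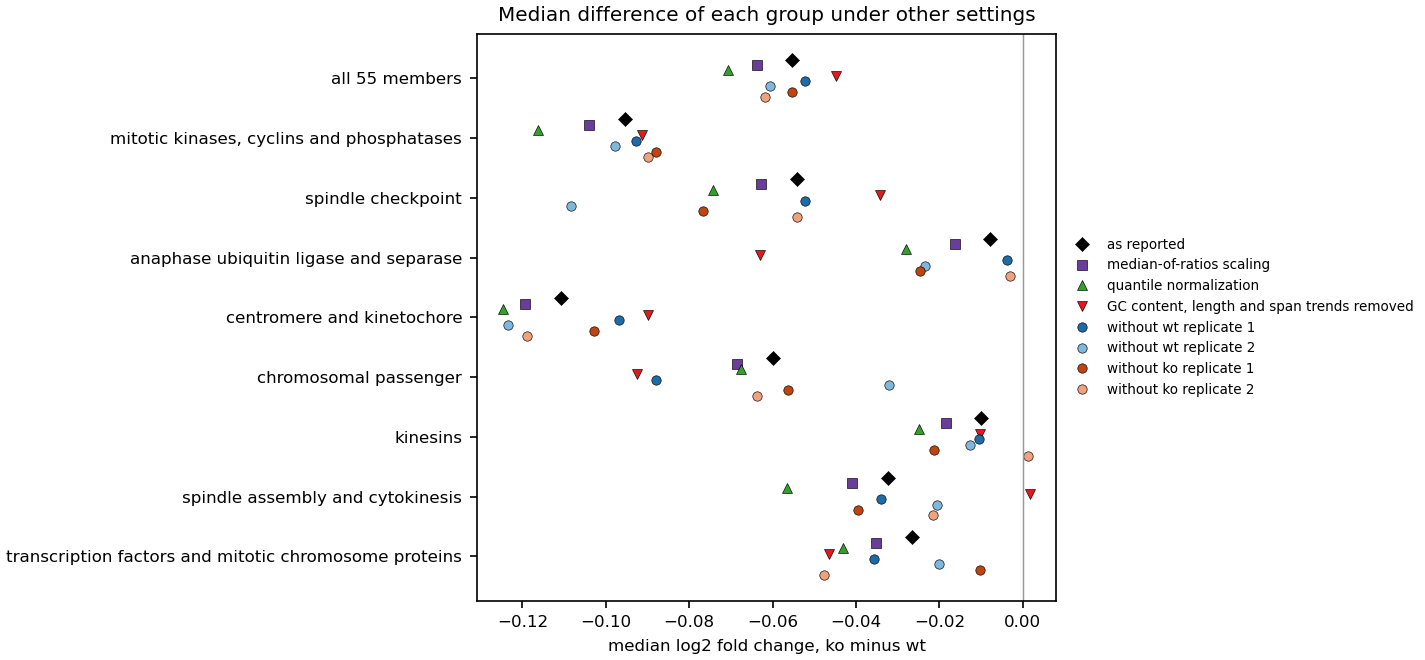
Median log2 fold change (ko minus wt, x axis) of all 55 members and of each group as reported (black diamonds) and under other scalings, with sequence trends removed, or with 1 library left out. The medians of centromere and kinetochore genes and of the kinases and cyclins lie at or below -0.088 in all settings drawn, while those of kinesins and of spindle assembly reach 0.001 and 0.002.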

How the data were processed

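RNA-seq of 4 libraries, 2 per genotype, was read from 1 table each. The FPKM values are the authors' own, per the file headers. The submitters' processing notes name Bowtie2 2.2.9, TopHat2 2.1.1 and mm10 without a role or order. Which tool, annotation, filters and strand setting gave FPKM is not stated in the labels or headers. Libraries were made with an mRNA-seq kit from sorted cells, per the labels. Since FPKM divides out depth, no counting interval is given. Biases of GC content and length may remain. Genes that a table does not list were taken as 0. Of the members, 16 share a locus with other genes in the files, where reads may not be separated. Cenpk is not among these 16 but overlaps Ppwd1 in the annotation.

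IDs were matched to GENCODE M21 on GRCm38, the assembly of mm10 (99.4% of 20735). Differences of log2(FPKM + 1), a scale that understates changes of low genes, were tested with limma 3.58.1 (R 4.3.3), with its spread modelled on mean expression and two-sided Benjamini-Hochberg adjustment over the 10883 genes whose mean reached 1 FPKM. SE and 95% intervals come from the fit. An exact permutation of 2 against 2 libraries cannot go below a p of 33.3%.

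The members and lists were chosen with earlier results of these data known. By rule, values in all libraries are given for members past the threshold, the 3 of smallest p and the 1 of highest FPKM in each group. Of the DNA replication genes called, 5 are named by smallest p, and 1 more that the rule names is not reported here. Other genes given values were chosen after their values were seen. Alternatives changed the pseudocount, filter, scaling, trend, replicate block, sequence trends, threshold and libraries used. Python 3.11.15 with pandas 2.3.3 and numpy 2.4.6 joined the tables.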

Additional observations from a re-analysis of the deposited data

How the results depend on the processing

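With 2 libraries per genotype the calls depended on the settings more than the direction did. Deviations of wt 1 and ko 1 from their group means had a correlation of -0.083 across genes. That is no strong shared deviation, but it cannot show whether libraries of the same number were paired. The block on replicate number left 917 called genes of 1400, 3 members lower (Spc25 missed at limma adjusted p 0.0548), 3 other mitotic genes and 8 replication genes. With no filter on low values 14 genes were called, of them 0 members, 0 other mitotic and 0 replication genes. Without the trend of spread on expression the counts were 536, 1, 1 and 1, and with the block and the sequence trends removed 560, 1, 1 and 5. At an adjusted p below 0.10 they were 2540, 12, 22 and 16. These are counts in both directions, of 10883 tested genes, 55 members, 103 other mitotic and 54 replication genes. The 12 members, all lower, are 21.8%, beside 11% of tested genes that were lower at that threshold. With the block 5.45% of members were called lower, beside 3.997% of tested genes. Without the trend of spread these shares were 1.82% and 2.8%, and with the block and the sequence trends removed 1.82% and 2.24%. Members called lower were 8 with a filter at 5 FPKM and 7 with median-of-ratios scaling or quantile normalization (14.5%, 12.7% and 12.7%), beside 7.22%, 6.54% and 5.95% of tested genes called lower there. No member was called higher in any setting. With 1 library left out, 348 to 595 genes, 0 to 1 members, 0 to 3 other mitotic and 2 to 5 replication genes were called.

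Counts of separated libraries under other settings were added after the data were seen. Members with ko below wt were 31 to 41 under other scalings or with sequence trends removed, beside 26.0% to 30.6% of tested genes. With 1 library left out they were 39 to 44, beside 37.3% to 39.1% of tested genes. Members with ko above wt were 1 (1.82%) with median-of-ratios scaling and 2 (3.64%) with quantile normalization, beside 30.6% and 30.4% of tested genes. With sequence trends removed they were 6 (10.9%), beside 33.2% of tested genes. Leaving out 1 library gave 4 to 8 (7.27% to 14.5%), beside 41.4% to 43.9%.

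Medians under median-of-ratios scaling were -0.064 for all members, -0.104 for kinases and cyclins, -0.016 for anaphase genes and -0.019 for kinesins. Under quantile normalization they were -0.071 (members), -0.116 (kinases and cyclins), -0.074 (checkpoint), -0.028 (anaphase), -0.125 (kinetochore), -0.025 (kinesins) and -0.056 (spindle assembly). With sequence trends removed, with or without the block, they were -0.045 (members), -0.091 (kinases and cyclins), -0.034 (checkpoint), -0.063 (anaphase), -0.090 (kinetochore), -0.093 (passenger), 0.0018 (spindle assembly) and -0.047 (transcription factors and chromosome proteins). With 1 library left out they ran from -0.062 to -0.052 for members, -0.098 to -0.088 for kinases and cyclins, -0.108 to -0.052 for checkpoint genes, -0.025 to -0.0031 for anaphase genes, -0.123 to -0.097 for kinetochore genes, -0.088 to -0.032 for passenger genes, -0.021 to 0.0012 for kinesins, -0.040 to -0.021 for spindle assembly and -0.048 to -0.010 for transcription factors and chromosome proteins.

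Among the 27 members given by the rule, the signs that turned were those of uncalled genes. Cdc20 went to -0.0065 (median-of-ratios), -0.031 (quantile), -0.059 (sequence trends removed, with or without the block), and ran from -0.0076 (without wt 1) to 0.012 (without wt 2) with 1 library left out. With sequence trends removed, with or without the block, Pttg1 went to 0.025, Kif15 to 0.030, Nusap1 to 0.0018 and Mybl2 to -0.048. Pttg1 ran from -0.075 (without wt 2) to 0.059 (without wt 1), and was 0.026 without ko 2. With sequence trends removed, several uncalled genes kept their sign but moved close to 0: Ttk to -0.034, Prc1 to -0.016, Tpx2 to -0.0053, Kif11 to -0.0080, Kif4 to -0.010 and Top2a to -0.0074, while Espl1 moved from -0.0077 to -0.067, Incenp from -0.045 to -0.100 and Ube2c from -0.085 to -0.151. The cause of these changes was not tested.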
